A study of Mus musculus with 6 samples.

Results

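The 10 HoxB genes of the mouse, Hoxb1 to Hoxb9 and Hoxb13, were described in RNA-seq libraries of hair follicle stem cells (HFSC), the long-lived cells of the follicle from which hair regrows. They were chosen by symbol as the protein-coding Hox genes of the HoxB cluster, and all 10 were among the 23377 gene symbols of the count table. The knockout group held 2 libraries of sorted HFSC with the genotype Ring1a/b-/- (RingKO), lacking by label both catalytic subunits of Polycomb repressive complex 1, and the wild-type (WT) group held 2 libraries of the same cells. All 4 came from C57BL/6 mice and from 3000 sorted cells each, made into libraries with SMART-seq2, which copies polyadenylated RNA along its whole length and amplifies it by PCR. The sources used here do not give the age of the animals, the time since deletion, the Cre line or the sorting gate of these samples (an Lgr5-GFP gate is given for other cells of the study), and do not say that the libraries came from separate animals, so p-values measure the spread between these libraries only, which may be technical. The comparison asked how loss of Ring1a and Ring1b changed HoxB transcripts in these cells.

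Hox genes encode homeodomain transcription factors that give cells their position along the head-to-tail axis. Within a cluster they lie broadly in the order in which they are used. Genes towards the 3′ end, where Hoxb1 lies, are in general expressed earlier and further forward. Hoxb13, set apart at the 5′ end, is expressed last and furthest back. Polycomb complexes are best known for holding Hox genes silent outside their domain, PRC1 by placing ubiquitin on a histone through Ring1a or Ring1b, and PRC2 by methylating another.

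Promoters of 3 of the 10 members, Hoxb1, Hoxb4 and Hoxb8, were found in the RefSeq promoter table, 1 each from the 3′ end, the anterior middle and the posterior middle of the cluster. They are shown because CpG-rich start sites are typical of Polycomb-bound developmental genes. Each run reads 5′ to 3′ on the + strand of build GRCm38.p6, covers 250 bases before and 50 after the annotated start, and has every CpG dinucleotide in capitals. Hoxb1 lies at chr11:96365508-96365807, Hoxb4 at chr11:96318017-96318316 and Hoxb8 at chr11:96281655-96281954.
Hoxb1: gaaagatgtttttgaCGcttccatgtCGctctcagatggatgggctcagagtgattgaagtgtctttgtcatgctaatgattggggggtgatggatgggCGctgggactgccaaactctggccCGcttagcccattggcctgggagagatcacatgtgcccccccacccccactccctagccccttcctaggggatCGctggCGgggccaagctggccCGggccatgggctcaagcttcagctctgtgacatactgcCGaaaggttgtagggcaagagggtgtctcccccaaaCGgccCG
Hoxb4: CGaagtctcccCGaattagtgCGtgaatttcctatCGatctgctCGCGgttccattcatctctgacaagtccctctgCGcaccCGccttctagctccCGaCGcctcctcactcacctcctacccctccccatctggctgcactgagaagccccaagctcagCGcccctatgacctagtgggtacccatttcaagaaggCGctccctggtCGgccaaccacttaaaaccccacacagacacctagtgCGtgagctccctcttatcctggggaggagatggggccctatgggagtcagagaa
Hoxb8: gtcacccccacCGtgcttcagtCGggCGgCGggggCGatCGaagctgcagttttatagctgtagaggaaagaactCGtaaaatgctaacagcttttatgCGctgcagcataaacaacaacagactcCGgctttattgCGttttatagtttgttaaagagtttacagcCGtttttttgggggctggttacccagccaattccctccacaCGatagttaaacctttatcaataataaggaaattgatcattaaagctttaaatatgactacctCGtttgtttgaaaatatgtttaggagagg
The Hoxb1 window held 10 CpG and was 59.3% G or C, the Hoxb4 window 14 CpG and 58.0%, and the Hoxb8 window 13 CpG and 42.3%. Over 32851 promoters of the same length the median was 7 CpG and 52.7% G or C, and 56.5%, 63.7% and 62.1% of promoters held fewer CpG than those of Hoxb1, Hoxb4 and Hoxb8. The motif TGATNNAT, the core that Hox proteins bind together with a Pbx partner, was searched on both strands. It matched once in Hoxb1, 162 bases before the start, and once in Hoxb8, 11 bases before the start, against 8.85% of all promoters with a match. TGACAG, the core bound by Meis proteins, was in none of the 3 windows and in 19.2% of promoters. TATAAA, also searched on both strands, matched 199 and 110 bases before the Hoxb8 start and was in 13.6% of promoters. Both Hoxb8 matches lie on the strand opposite to the gene, so the printed run shows their reverse complement. The matches do not overlap one another, and a match is a string of letters, not a bound site.

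The RingKO libraries held 4844381 and 7740945 counts and the WT libraries 2785843 and 3056593, so low counts were better measured in RingKO. Of the targeted genes, Ring1 (Ring1a) was at 15.5 and 18.4 CPM (counts scaled to a common depth) in RingKO and 31.9 and 29.4 CPM in WT, and Rnf2 (Ring1b) at 151 and 153 CPM in RingKO and 144 and 87.8 CPM in WT. Neither passed the test (edgeR adjusted p = 0.551 and 0.532), and counts over a whole gene do not check the labels where the deleted exons are unknown. All 14 HFSC markers were tested and none was called (3 higher and 1 lower at an unadjusted edgeR p under 0.05); their summed level was 2212 and 1901 CPM in RingKO against 1899 and 2136 CPM in WT. Their log2 fold changes were above 0 for 8 and below 0 for 6, and the level sums hide opposite members, named here after their values were seen. Lgr5 was at 251 and 240 CPM in RingKO and 140 and 194 CPM in WT, and Sox9 at 172 and 156 CPM in RingKO and 49.4 and 95.1 CPM in WT. Nfatc1 was at 38.8 and 34.0 CPM in RingKO and 0 and 2.34 CPM in WT. It is 1 of the 3 markers higher at the unadjusted level, but it passed the filter on low counts through its RingKO libraries alone and had to be higher. Krt15 was at 303 and 250 CPM in RingKO and 417 and 362 CPM in WT, and Cd34 at 15.3 and 2.61 CPM in RingKO and 24.3 and 20.4 CPM in WT. Markers of other cell types were present and not level between the groups. Leukocyte markers summed to 997 and 440 CPM in RingKO and 199 and 202 CPM in WT (13 of 16 tested, 1 called, Ctss, higher), Merkel cell markers to 95.1 and 121 CPM in RingKO and 7.97 and 34.0 CPM in WT (4 of 7 tested, 0 called), and fibroblast and dermal papilla markers to 442 and 264 CPM in RingKO and 683 and 838 CPM in WT (9 of 12 tested, 0 called). The largest part of the fibroblast sum was Dcn, at 272 and 159 CPM in RingKO and 593 and 430 CPM in WT. Col1a1, Col1a2 and Col3a1 were at 113, 139 and 81.4 CPM in WT replicate 2 but at 14.4, 11.4 and 14.4 CPM in WT replicate 1. In RingKO none of these collagens was above 17.8 CPM. Of the 9 tested, 4 had a log2 fold change above 0, among them Crabp1 at 34.7 and 27.6 CPM in RingKO and 0 counts in WT. Endothelial and mural markers summed to 195 and 202 CPM in RingKO and 279 and 335 CPM in WT (5 of 10 tested, 0 called). Acta2 was at 9.89 and 46.7 CPM in RingKO and 158 and 138 CPM in WT. Of the 5 tested, 2 had a log2 fold change above 0. They were Cspg4, at 179 and 136 CPM in RingKO and 102 and 138 CPM in WT, and Pdgfrb. Pdgfrb was at 3.23 and 17.4 CPM in RingKO and 0 and 1.33 CPM in WT, and passed the filter on low counts through RingKO alone. Pecam1, Cdh5, Kdr and Flt1, not tested, had 35, 27, 39 and 50 counts in WT replicate 2 and 0, 0, 3 and 0 in WT replicate 1. Melanocyte markers summed to 187 and 133 CPM in RingKO and 194 and 197 CPM in WT (5 of 8 tested, 0 called), and Schwann cell markers to 27.9 and 44.9 CPM in RingKO and 18.6 and 34.4 CPM in WT (5 of 6 tested, 0 called). Cd207, Emcn and Sox10 had 0 counts in every library. The part of these cells in the HoxB values below was not tested.

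The 5′ end of the cluster gave the widest differences. Hoxb13, which in mice limits the growth of the tail and acts in the prostate, was detected in both RingKO libraries and in neither WT library, and Hoxb9, a gene of the thoracic segments, was several-fold higher in RingKO. The 7 genes Hoxb2 to Hoxb8 were all expressed in WT and stayed within a factor of 1.56 in the group fits, some higher and some lower. No member passed the threshold of the main test, an edgeR quasi-likelihood adjusted p under 0.05 over the 13134 genes tested, which only 8 genes passed in all (0.0609% of those tested). In bulk samples such as these, fewer cells of a type and less RNA per cell cannot be told apart.

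Hoxb13 had 44 and 159 counts in RingKO (8.88 and 19.8 CPM) and 0 and 0 counts in WT. Both RingKO libraries were above the floor that 0 counts allow in WT, 1.14 and 1.00 CPM per library for 3 counts. Measured against 3 counts over the WT group (0.533 CPM), Hoxb13 was at least 29.3-fold higher in RingKO; the bound was 16.7 without RingKO replicate 2, 37.1 without RingKO replicate 1, and 15.6 and 13.7 without WT replicate 1 and 2. Among the members only Hoxb13 had an unadjusted p under 0.05 in the edgeR quasi-likelihood test (edgeR adjusted p = 0.147), where 8.47% of all genes tested were higher at that level. Hoxb13 passed the filter on low counts through its RingKO libraries alone and could only be higher. Its p-values, here and in the alternatives, therefore only describe it and are no support. It passed the adjusted threshold in 3 alternatives, DESeq2 (adjusted p = 0.000808), edgeR without a filter on low counts (adjusted p = 0.00602) and edgeR with a replicate block (adjusted p = 0.0415), and in no other setting run. The authors' deposited table marks it as higher with a log2 fold change of 7.78 ± 1.82 (SE) and an adjusted p of 0.000809. Both this fold change and a fitted one depend on how 0 counts are treated. The deposited values of the members nearly equal those of DESeq2 run here, so they are not a separate source. Of all symbols counted, 162 of 23377 (0.693%) had 0 counts in both WT libraries and at least 10 in each RingKO library.

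Hoxb9 had 58 and 240 counts in RingKO (11.7 and 29.9 CPM) and 6 and 20 counts in WT (2.28 and 6.67 CPM). The groups did not overlap, but the replicates of each group lay 2.55-fold apart in RingKO and 2.93-fold apart in WT. Its level averaged 20.8 ± 12.8 CPM in RingKO and 4.48 ± 3.11 CPM in WT (SD, n = 2 each), a 4.61-fold difference (log2 fold change 2.21 ± 1.02 SE) that did not pass the test (edgeR adjusted p = 0.331). The authors' deposited table gives 2.22 ± 0.91 (SE) with an adjusted p of 0.0917 and marks it as higher. Hoxb13 and Hoxb9 were the only members that this table marks, and none is marked as lower; 7.35% of its 14502 genes with an adjusted p carry the mark of higher genes, which reaches adjusted p-values of 0.0998.

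**Figure D1:**
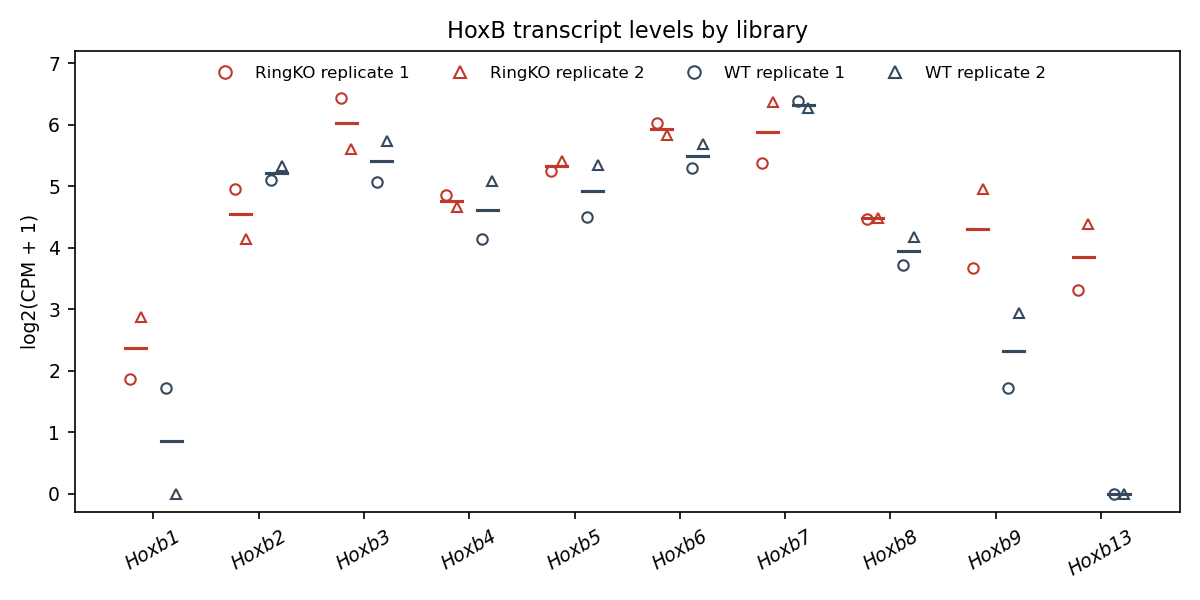
Level of each HoxB gene in every library as log2(CPM + 1), in cluster order from Hoxb1 to Hoxb13, with RingKO to the left of WT and bars at the group means of the plotted values. Hoxb13 is at 0 in both WT libraries, Hoxb9 and Hoxb1 lie lower in WT than in RingKO, and the other 7 genes lie at similar heights in the 2 genotypes.

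Hoxb1, at the other end of the cluster and needed for facial motor neurons in the hindbrain, had few counts in every library. There were 13 and 51 counts in RingKO (2.62 and 6.35 CPM) and 6 and 0 counts in WT (2.28 and 0 CPM). RingKO replicate 1 and WT replicate 1 were nearly level, so the 3.95-fold difference (log2 fold change 1.98 ± 1.69 SE, edgeR adjusted p = 0.646) was small against the spread between libraries. Leaving out WT replicate 2 brought the log2 fold change to 0.96, and leaving out WT replicate 1 left 0 counts in WT, where the fitted 7.60 is no measured size. Hoxb1 and Hoxb13 passed the filter on low counts through their RingKO libraries alone, so both had to be higher there, and their place in the counts below carries no weight.

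Of the anterior members, Hoxb2, which like Hoxb1 patterns the hindbrain, was the 1 gene lower in both RingKO libraries than in either WT library. It had 29.9 and 16.7 CPM in RingKO and 33.4 and 39.0 CPM in WT, a level 1.56-fold lower in RingKO (log2 fold change -0.64 ± 0.56 SE, edgeR adjusted p = 0.658). Hoxb3, active in the hindbrain and the organs of the neck, showed overlapping groups with 85.6 and 47.7 CPM in RingKO and 32.7 and 52.4 CPM in WT. RingKO replicate 1 was above the other 3 libraries, and the log2 fold change was 0.64 ± 0.43 SE (edgeR adjusted p = 0.521). Hoxb4, known for expanding blood stem cells when overexpressed, had 27.9 and 24.2 CPM in RingKO and 16.7 and 32.7 CPM in WT, with the RingKO values inside the WT range and a log2 fold change close to 0 (0.07 ± 0.62 SE, edgeR adjusted p = 0.982). In the GRCm38.p6 annotation Hoxb3 spans Hoxb4 and Mir10a, and Hoxb3os overlaps Hoxb2 and Hoxb3. Whether strand was used in counting is unknown, so reads of these overlapping genes may be split or shared.

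Among the middle members, Hoxb5, which marks long-term blood stem cells in mice, had 36.9 and 41.6 CPM in RingKO and 21.6 and 39.4 CPM in WT. The spread of WT covered RingKO replicate 1, and the log2 fold change was 0.36 ± 0.51 SE (edgeR adjusted p = 0.818). Hoxb6, expressed in the lateral mesoderm of the trunk, had 63.8 and 56.1 CPM in RingKO and 38.3 and 50.4 CPM in WT, a 1.35-fold difference without overlap (log2 fold change 0.43 ± 0.36 SE, edgeR adjusted p = 0.642). Hoxb5 and Hoxb6 both overlap the antisense gene Hoxb5os in the annotation, which sets the same limit of strand on them.

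Hoxb7, whose promoter is widely used to drive transgenes in the kidney's ureteric bud, had 40.4 and 81.9 CPM in RingKO and 82.4 and 76.1 CPM in WT, so RingKO replicate 1 was lower than the other 3 libraries and RingKO replicate 2 was near WT replicate 1. Its log2 fold change was -0.37 ± 0.38 SE (edgeR adjusted p = 0.721). Hoxb8, whose loss in mice causes excessive grooming, had 21.2 and 21.4 CPM in RingKO and 12.2 and 17.0 CPM in WT, a 1.46-fold difference without overlap (log2 fold change 0.55 ± 0.72 SE, edgeR adjusted p = 0.803). Hoxb1, Hoxb7, Hoxb8, Hoxb9 and Hoxb13 have no overlapping gene in the annotation.

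**Figure D2:**
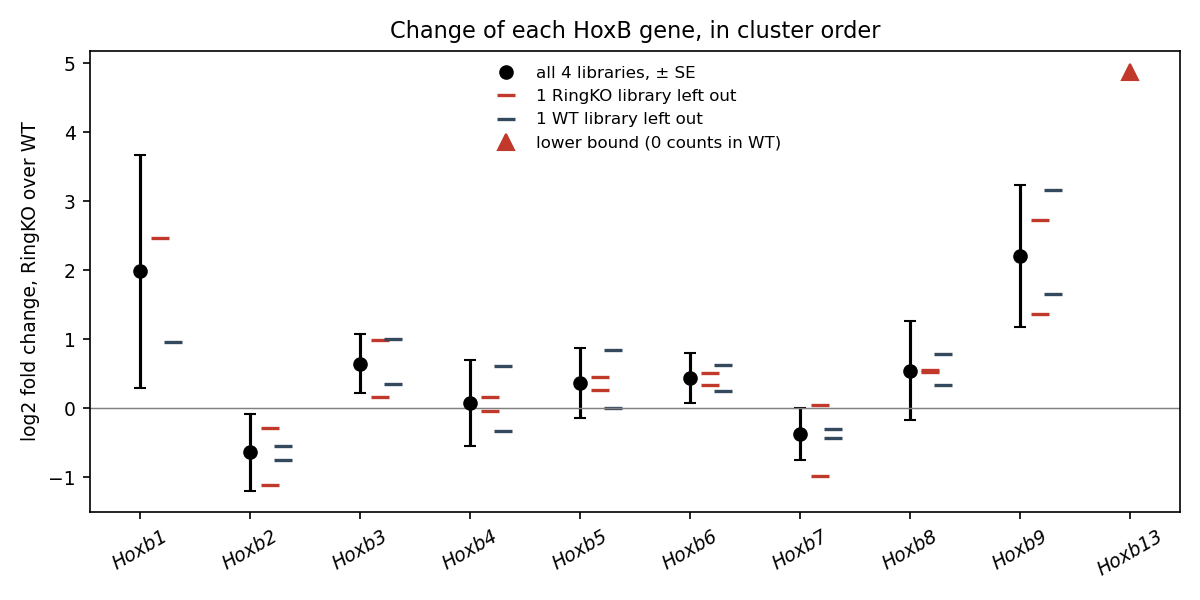
Log2 fold change of RingKO over WT for each HoxB gene in cluster order, with the SE of the edgeR fit over 4 libraries as error bars and short bars for fits with 1 library left out. Hoxb13 is drawn as a lower bound of 4.87 because WT had 0 counts. Hoxb9 stays above 1 whichever library is left out, the Hoxb1 fit without WT replicate 1 is not drawn because it leaves 0 counts in WT, and Hoxb4 and Hoxb7 have short bars on both sides of 0.

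Over the cluster, 8 of 10 members had a log2 fold change above 0 and 2 below, with a median of 0.49 against 0.03 over all genes tested. Hoxb1 and Hoxb13, which had to be higher, are among the 8 and raise the median. Both RingKO libraries were above both WT libraries for 5 members, Hoxb1, Hoxb6, Hoxb8, Hoxb9 and Hoxb13, where 24.8% of all genes tested were higher without overlap. Of the members free to go either way, these were only Hoxb6 and Hoxb8. Hoxb9 cleared the filter on low counts in only 1 WT library. With both RingKO libraries below both WT libraries, Hoxb9 would not have been tested. Both RingKO libraries were below both WT libraries for 1 member, Hoxb2, where 22.3% of all genes tested were lower without overlap. Counts summed over the 10 genes came to 337 ± 11.8 CPM in RingKO and 278 ± 50.8 CPM in WT (SD, n = 2 each), a difference of about the SD of WT. For Hoxb2 to Hoxb8 alone the sums were 298 ± 11.4 CPM in RingKO and 272 ± 49.3 CPM in WT, and for Hoxb9 and Hoxb13 together 35.1 ± 20.6 CPM in RingKO and 4.48 ± 3.11 CPM in WT.

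The make-up of the HoxB counts was also read within each library, which does not depend on scaling between libraries; the shares are of counts and are not corrected for transcript length. HoxB counts numbered 1629 and 2776 in RingKO and 637 and 940 in WT. Hoxb9 and Hoxb13 together made up 6.26% (5.18 to 7.54) and 14.4% (13.1 to 15.7) of them in RingKO, against 0.942% (0.432 to 2.04) and 2.13% (1.38 to 3.26) in WT, with Wilson 95% intervals that cover counting error only. This pair was put together because its members differed most, so the gap between the genotypes is a description. Hoxb13 alone made up 2.70% and 5.73% in RingKO and 0% in WT, where 0 counts allow up to 0.599% and 0.407% by the Wilson interval. Hoxb2 took 9.09% and 4.83% in RingKO and 13.8% and 12.4% in WT, while the Hoxb3 share overlapped between the groups (26.0% and 13.8% in RingKO, 13.5% and 16.7% in WT). The Hoxb7 share was 12.3% and 23.7% in RingKO and 34.1% and 24.3% in WT.

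**Figure D3:**
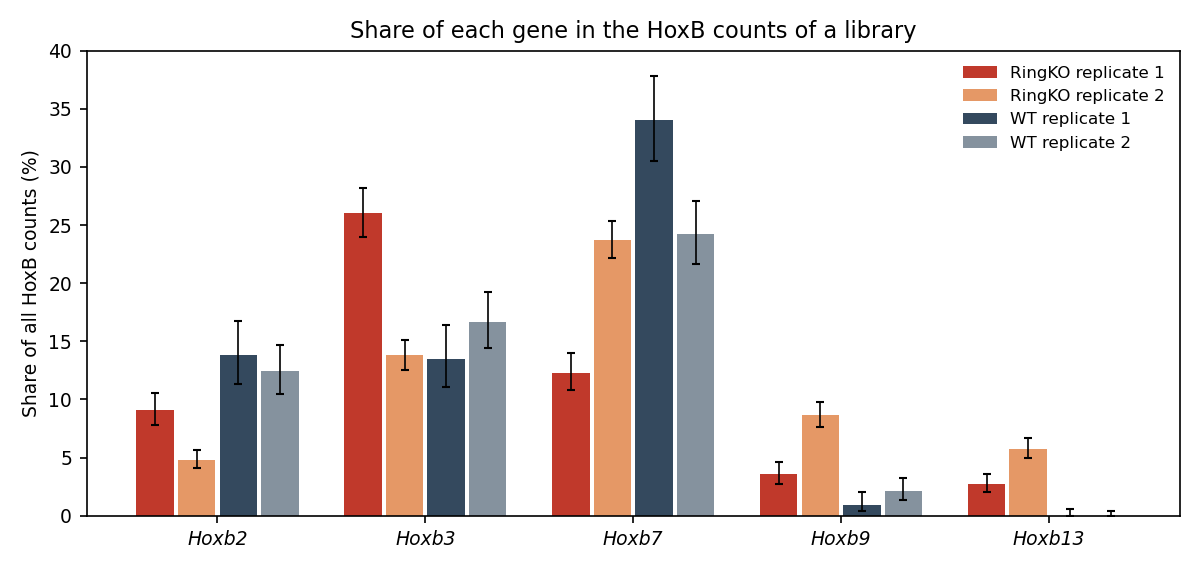
Share of 5 HoxB genes in all HoxB counts of a library, in percent, with Wilson 95% intervals for counting error, RingKO bars left of WT bars. Hoxb9 and Hoxb13 have larger shares in both RingKO libraries than in either WT library, Hoxb2 and Hoxb7 smaller ones, and the Hoxb3 shares overlap; the shares of all 5 genes differ between the RingKO libraries.

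The RingKO libraries differed from each other along the cluster. The CPM of replicate 2 over that of replicate 1 was 0.558 for Hoxb2 and 0.557 for Hoxb3, between 0.867 and 1.13 for Hoxb4, Hoxb5, Hoxb6 and Hoxb8, and 2.03 for Hoxb7, 2.55 for Hoxb9, 2.23 for Hoxb13 and 2.42 for Hoxb1. Replicate 2 was thus lower for the anterior pair and higher for Hoxb7, Hoxb9, Hoxb13 and Hoxb1. The same library had lower marker sums for leukocytes, fibroblasts, melanocytes and HFSC. Its sums for Merkel, Schwann, and endothelial and mural cells were higher. A link between these sums and the HoxB ratios was not tested. In WT the ratio was above 1 for every member measured in both libraries except Hoxb7, from 1.17 for Hoxb2 to 2.93 for Hoxb9.

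The genes of the other clusters that share an ancestor with a HoxB gene (paralogues, numbered alike) gave a setting for these values. In HoxA, Hoxa9 had 36.1 and 61.2 CPM in RingKO and 11.01 and 17.0 CPM in WT, on the log2 scale a difference of 1.79 ± 0.57 SE (edgeR adjusted p = 0.180), and Hoxa6 had 3.84 and 3.98 CPM in RingKO and 1.52 and 1.00 CPM in WT. Hoxa2 was at 0 and 2.74 CPM in RingKO and 11.8 and 0.334 CPM in WT, with overlapping groups. In HoxC, Hoxc9 had 4.24 and 14.6 CPM in RingKO and 3.04 and 0.667 CPM in WT (log2 fold change 2.34 ± 1.34 SE, edgeR adjusted p = 0.436), and the log2 fold changes of Hoxc4 and Hoxc6 were 1.11 ± 1.11 and 1.02 ± 0.76 SE. In HoxD, Hoxd9 had 24.6 and 13.1 CPM and Hoxd13 41.8 and 24.5 CPM in RingKO, both with 0 counts in WT, at least 32.8-fold and 58.4-fold higher in RingKO. Hoxd4 had 13.1 and 8.34 CPM in RingKO and 1.90 and 4.67 CPM in WT. None of these paralogues passed the main threshold. Hoxd11, of a group without a HoxB member, did pass (edgeR adjusted p = 0.0431), but it had 0 counts in WT and could only be higher.

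In group 9, Hoxa9, Hoxb9 and Hoxc9 had counts in WT and were higher in both RingKO libraries than in either WT library, as were 24.8% of all genes tested. Only Hoxa9 among them was free to go either way. Hoxb9 and Hoxc9 cleared the filter on low counts in only 1 WT library, so neither could have been tested as lower without overlap. Hoxd9, with 0 counts in WT, could only be higher. Group 13 was not uniform: Hoxb13 and Hoxd13 had 0 counts in WT, whereas Hoxc13, a hair follicle gene named here after its values were seen, had 77.9 and 75.8 CPM in RingKO and 59.2 and 68.7 CPM in WT. Hoxa13, also named after the fact, had 0 and 2 counts in RingKO and 0 in WT. In paralogue groups 1 to 8, the median log2 fold change of the 8 HoxB genes was 0.40, with a range of -0.64 to 1.98, beside 0.52 for the 13 tested genes of the other clusters. The highest of these HoxB values was that of Hoxb1, which had to be higher. In groups 9 to 13, all 10 tested genes of the other clusters were higher without overlap. Of these, 6 had 0 counts in WT and could only be higher. Hoxa10, with 1 and 5 counts in WT, passed the filter on low counts through its RingKO libraries alone and also had to be higher. With Hoxc9 limited as given above, only Hoxa9 and Hoxc13 were free to go either way.

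**Figure D4:**
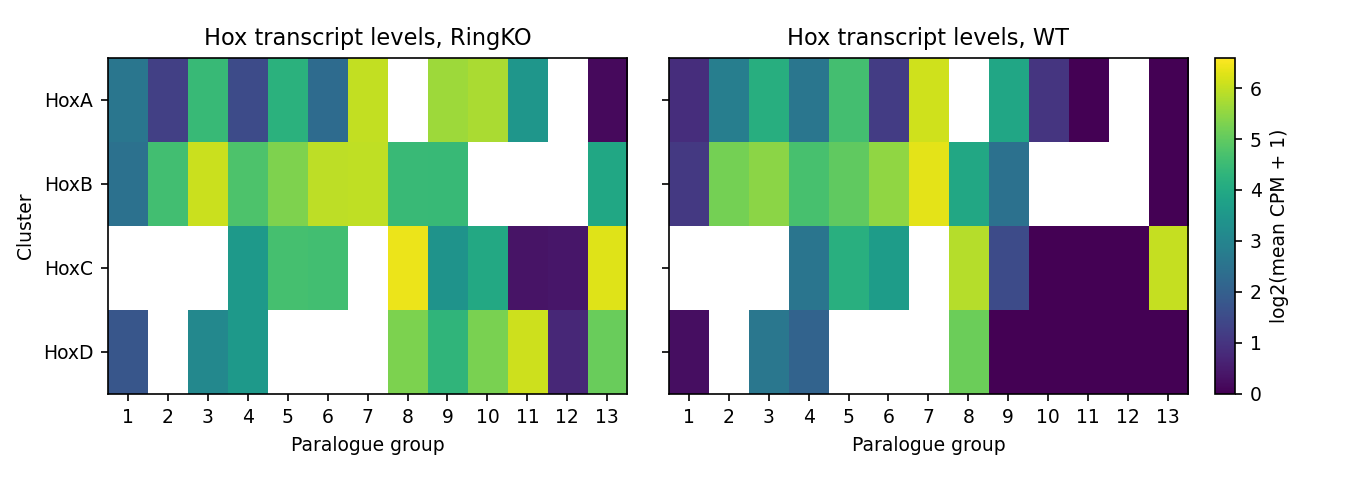
Mean level of every Hox gene, as log2(mean CPM + 1), in RingKO (left panel) and WT (right panel), by cluster and paralogue group, with white where the mouse has no gene. Counts are not corrected for transcript length, so each square is to be compared with the same square of the other panel. The HoxB row is dark at group 13 in WT and lit in RingKO, its groups 2 to 8 look alike in both, and the HoxD row is at 0 from group 9 onwards in WT.

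Of the other transcripts of the locus, 4 of 12 listed symbols were in the count table and none had enough counts to be tested. Gm53, a long non-coding RNA gene between Hoxb13 and Hoxb9, had 9 and 119 counts in RingKO (1.82 and 14.8 CPM) and 2 and 4 counts in WT (0.759 and 1.33 CPM). Most of its RingKO counts thus came from replicate 2. Mir10a had 0 and 0 counts in RingKO and 0 and 4 in WT, but these libraries copy polyadenylated RNA and do not measure mature miRNAs.

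The genes around the cluster were read in the order of the RefSeq table, 10 on each side. Beyond Hoxb13, 5 of 10 genes had enough counts to be tested and 1 passed the threshold. Igf2bp1, an RNA-binding protein of fetal tissues and the seventh gene from Hoxb13, had 319 and 633 counts in RingKO (64.4 and 78.8 CPM) and 0 and 2 counts in WT (0 and 0.667 CPM). Its ratio of pooled counts was 206, with a 95% counting interval of 57.0 to 1707 (110 without WT replicate 1, and at least 64.4 without WT replicate 2), and it passed the main test (edgeR adjusted p = 0.0431). Like Hoxb13, Igf2bp1 passed the filter on low counts through its RingKO libraries alone. It thus had to be higher, and the call only describes it. The call was lost without either RingKO library (edgeR adjusted p = 0.088 and 0.196 without replicate 1 and 2), with limma-voom (adjusted p = 0.176) and with the filter of 1 CPM in 2 libraries (edgeR adjusted p = 0.0544).

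Of the 6 genes between Igf2bp1 and Hoxb13, 3 are given here, chosen after their values were seen because they had the most counts; all 3 were present in WT. Atp5g1 had 131 and 100 CPM in RingKO and 202 and 193 CPM in WT, Ube2z 92.3 and 65.7 CPM in RingKO and 63.8 and 105 CPM in WT, and Snf8 59.6 and 33.6 CPM in RingKO and 41.8 and 64.4 CPM in WT. On the other side, beyond Hoxb1, 8 of 10 genes were tested and none passed in edgeR. Snx11, a sorting nexin, had 36.5 and 58.3 CPM in RingKO and 31.9 and 25.4 CPM in WT (edgeR adjusted p = 0.506), and Cbx1, a heterochromatin protein, had 109 and 93.9 CPM in RingKO and 163 and 140 CPM in WT (edgeR adjusted p = 0.248). Cbx1 passed the threshold, as lower, with DESeq2 (adjusted p = 0.0406) and in no other setting run.

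Among genes for proteins that act with or on Hox genes, none of the 9 tested of 11 genes for the TALE cofactors, none of 14 tested of 18 listed Hox activators, none of 24 PRC1 subunits and none of 11 tested of 13 PRC2 subunits passed the edgeR threshold. At an unadjusted edgeR p under 0.05, 2 cofactors and 4 PRC1 subunits were higher and none lower, and 1 activator and 1 PRC2 subunit lay in each direction; over all genes tested 8.47% were higher at that level. Of the 24 PRC1 subunits, 13 were higher and 2 lower in RingKO without overlap, where 24.8% and 22.3% of all genes tested were. The median log2 fold changes were 0.16, -0.17, 0.41 and -0.19 in that order, beside 0.03 over all genes tested. Of the cofactors, which bind DNA beside Hox proteins, Tgif1 had 121 and 132 CPM in RingKO and 127 and 119 CPM in WT, and Pknox1 69.7 and 140 CPM in RingKO and 122 and 120 CPM in WT. Of the methyltransferases that counter Polycomb at Hox genes, Kmt2a had 314 and 310 CPM in RingKO and 250 and 298 CPM in WT, and Kmt2d 630 and 485 CPM in RingKO and 695 and 578 CPM in WT. Each of these 4 genes had overlapping groups or a gap smaller than the spread of WT. The 2 cofactors with an unadjusted p under 0.05, named after their values were seen, were Meis2, at 30.9 and 16.2 CPM in RingKO and 0.380 and 1.33 CPM in WT (log2 fold change 4.71 ± 1.16 SE, edgeR adjusted p = 0.149), and Tgif2, at 56.1 and 31.0 CPM in RingKO and 17.1 and 12.3 CPM in WT (edgeR adjusted p = 0.237). Meis2 passed the filter on low counts through its RingKO libraries alone, so it had to be higher. Of the PRC1 subunits, Phc3, a Polyhomeotic protein, had 241 and 211 CPM in RingKO and 208 and 193 CPM in WT, and Rnf2 is given above. The 4 with an unadjusted p under 0.05, named after their values were seen, were Auts2, Bcor, Rybp and Bcorl1. Auts2 had 173 and 160 CPM in RingKO and 58.5 and 58.7 CPM in WT (edgeR adjusted p = 0.0798). Bcor had 168 and 163 CPM in RingKO and 72.5 and 56.1 CPM in WT (edgeR adjusted p = 0.106). Of the PRC2 subunits, the histone-binding Rbbp7 had 228 and 239 CPM in RingKO and 436 and 346 CPM in WT (log2 fold change -0.75 ± 0.19 SE, edgeR adjusted p = 0.149), and Mtf2, which helps PRC2 find CpG-rich DNA, had 215 and 174 CPM in RingKO and 210 and 232 CPM in WT.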

How the data were processed

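RNA-seq of 4 libraries was analysed. Whole-number counts per gene symbol, deposited by the authors without normalization, were the input. The submitters' processing notes name build mm9 and, among tools for reads, TopHat2 2.1.1, HTSeq 0.7.2, Picard 1.62 and DESeq2. The roles of these tools are not stated, though the deposited comparison of the HoxB genes nearly equals DESeq2 run here. The annotation and the use of strand are unknown here. The authors' deposited comparison table gives, per the file headers, a mean normalized signal, a log2 fold change of RingKO over WT with its SE, and p-values; its marked genes had log2 fold changes of at least 1 in size. The deposited normalized table and the Ring1b ChIP-seq peak lists were not used here, the peaks because no mm9 gene annotation was at hand.

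The test was run in edgeR 4.0.16 under R 4.3.3 (filterByExpr, TMM, robust quasi-likelihood fit, genotype as the only term), with Benjamini-Hochberg adjustment over 13134 genes. CPM are on TMM-scaled library sizes, and SE is the absolute log2 fold change divided by the root of F. The script was tested on simulated data. With 0 counts in WT, folds are lower bounds against 3 counts over the group. Intervals (95%, Wilson for shares, exact for the ratio of counts) and floors reflect counting error alone, because PCR duplicates are not separate molecules. Levels of different genes are not compared, since transcript lengths were not used. Alternatives were DESeq2 1.42.0, limma-voom 3.58.1, other scaling and filters, thinning to equal depth, a replicate block and leaving out each library. Promoters come from RefSeq (GRCm38.p6), read in Python 3.11.15.

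The rule named all 10 members, up to 3 paralogues per other Hox cluster by size of change (at least 10 counts), and, from other lists and 10 neighbours per side, genes past the threshold, or else the 2 most abundant or nearest. The members and lists were chosen with earlier results of these data known. Same-numbered libraries did not deviate together (Pearson correlation of deviations from the group means -0.14 across 13134 genes), so the numbers were not taken as pairs.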

Additional observations from a re-analysis of the deposited data

How the results depend on the processing

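The count of genes past the threshold, 8 in the edgeR analysis reported, depended on the tool and the filter, and the cause was not tested: 1792 with DESeq2, 0 with limma-voom (1956 at an unadjusted p under 0.05), 802 without a filter on low counts, 1 with a filter of 1 CPM in 2 libraries, 26 with counts thinned to equal depth, and 0 to 60 with 1 library left out (0 without RingKO replicate 2, where 1098 genes had an unadjusted p under 0.05, 1 without RingKO replicate 1, 32 without WT replicate 1 and 60 without WT replicate 2). DESeq2 size factors within edgeR gave 8. With the replicate number as a block, 416 genes passed. The correlation of same-numbered libraries was negative, so a crossed pairing was added after seeing the data and called 8 genes and no HoxB gene. The count of HoxB genes past the threshold, 0 as reported (1 at an unadjusted p under 0.05), was 1 with DESeq2, 1 without a filter and 1 with the replicate block. The gene was Hoxb13 each time, with adjusted p = 0.000808 by DESeq2, 0.00602 by edgeR without a filter and 0.0415 by edgeR with the block; every other setting run gave 0. Hoxb13 had 0 counts in WT and could only be higher, so these calls only describe it. The HoxB median log2 fold change, 0.49 as reported, ranged over 0.29 to 0.82 with 1 library left out. Signs turned for 2 members: Hoxb4, at 0.07 as reported, ranged over -0.33 to 0.62 with 1 library left out (-0.03 without RingKO replicate 1), and Hoxb7, at -0.37, over -0.99 to 0.047 (the highest without RingKO replicate 1). Hoxb9 ranged over 1.37 to 3.17, and was at 1.65 without WT replicate 1. Hoxb1, at 1.98, was at 0.96 without WT replicate 2, 2.47 without RingKO replicate 1 and 7.60 without WT replicate 1, where WT had 0 counts; it had too few counts to be tested when thinned or without RingKO replicate 2. With 2 libraries a group, leaving 1 out assumes that the lone library varies like the other group, and Hoxb1, Hoxb9 and Hoxb13 in WT are limited by depth.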
